A study of Mus musculus with 6 samples.

Results

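The baseline transcriptome of young liver endothelium is described from 3 of the 6 samples of the series, the RNA libraries of liver ECs from 10-week-old C57BL/6J mice of WT genotype. No allele was altered and no agent was given in this group, and the study used female mice. The other 3 samples came from older mice and are not used here. ECs were sorted from dissociated liver as CD31+CD45- cells, that is, cells carrying the endothelial surface protein CD31 and lacking the pan-leukocyte protein CD45, and RNA from 50000 sorted cells was read on an Illumina instrument as 75-base single-end reads. The gate takes ECs of every hepatic vessel together, so each value is an average over sinusoids, portal and central veins and arteries, and in such bulk RNA fewer cells of a type and less RNA per cell cannot be told apart. The methods speak of 3 independent samples without saying whether each was 1 mouse, and the spread between them may include technical spread.

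Most ECs of the liver line the sinusoids, the capillaries through which blood from the portal vein and hepatic artery reaches the central vein. Liver sinusoidal ECs have open pores without a diaphragm and little basement membrane, and they are known as scavenger cells that take up waste proteins, lipoproteins, antibody complexes and modified sugars from blood through the stabilins, the mannose receptor and Fc receptors. ECs near the central vein are known for the Wnt ligands and R-spondin that set the metabolic zones of hepatocytes, and sinusoidal ECs for the BMP ligands through which hepatocytes sense iron. ECs of portal veins and arteries carry other markers, among them CD157, encoded by Bst1, and CD200, by which the study divided liver ECs.

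Levels were taken as FPKM, read counts scaled by exon length and by the depth of the library, a scale on which genes can be set against each other within a sample. Shares were taken from read counts, in percent of all counts on gene symbols except Lars2 and Rn45s, 2 symbols that hold copies of ribosomal RNA sequence and were set aside. The 3 libraries held 27650822, 23001556 and 31651817 counts, of which Lars2 and Rn45s took 5.48, 5.21 and 1.29%. Replicate 3 stood apart from the other 2 in several ways. Among 5984 genes with a mean of at least 10 FPKM and at least 30 counts in each sample, it was the lowest sample in 45.1% and the highest in 42.4%, and counts of members that were lowest or highest in it are read against these shares. Over the genes with at least 1 FPKM in both samples of a pair (10673 to 10807 genes), Pearson's r of log2 FPKM was 0.991 between replicates 1 and 2, and 0.960 and 0.964 between replicate 3 and replicates 1 and 2, where genes are not independent replicates and the libraries share one scaling. No library repeated another, since the chi-square per degree of freedom between counts was 20.1 for replicates 1 and 2 and 116 and 91.7 for the pairs with replicate 3. Means that rest on replicate 3 are therefore given with its value in view. With 3 libraries of 1 group, the smallest two-sided p of an exact sign-flip permutation test between a pair of genes is 0.25, so no test was made and an order is described by whether the 3 values of one gene overlap those of the next.

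Of 23030 gene symbols ranked, 11184 had a mean of at least 1 FPKM, and 10563 of them had at least 1 FPKM in all 3 samples. A mean of at least 10 FPKM was reached by 6068 genes, at least 100 by 912 and at least 1000 by 44, while 5926 symbols were listed at 0 in every sample. Among the 11184 genes the median of the mean FPKM was 11.6, with quartiles of 4.35 and 31.1. RNA was spread over many genes. A share of 50% of the counts lay on 644, 637 and 642 genes (641 ± 3.61, SD, n = 3), and 90% lay on 4924 ± 36.0 genes. The gene with most counts, Sepp1, took 1.33% ± 0.0270, the first 10 genes 5.68% ± 0.0993, the first 100 23.3% ± 0.461 and the first 1000 57.9% ± 0.164. These shares differed less between the 3 libraries than did the levels of most single genes. A count of 3, taken as the limit of detection, stood at 0.115, 0.138 and 0.0960 CPM, counts in units of depth, and covers counting error only, because the libraries carried no molecular identifiers and copies of a molecule cannot be counted out.

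The most abundant transcript was Sepp1, which encodes selenoprotein P, the plasma carrier of selenium (chr15:3218547-3230508, plus strand, mm9), at 6743, 7076 and 7023 FPKM in replicates 1, 2 and 3. Among the symbols ranked, which leave out small noncoding RNA, it was first in each of the 3 samples, and its values overlapped no others. Genes of antigen presentation were also high. B2m, the light chain of MHC class I, ranked 2 with 5416, 5828 and 4482 FPKM, and the class I heavy chain H2-D1 ranked 7 with 3174, 3571 and 4234 FPKM. B2m was lowest and H2-D1 highest in replicate 3, and their ranges lay apart by a small margin.

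Of the iron storage genes, the ferritin light chain Ftl1 ranked 3 with 4301, 3526 and 5648 FPKM and the ferritin heavy chain Fth1 ranked 24 with 1714, 1780 and 1113 FPKM. Ftl1 was highest and Fth1 lowest in replicate 3, so the ratio of the chains was not alike in the 3 libraries. Ifitm2 and Ifitm3, membrane proteins induced by interferon that restrict virus entry, had means of 4179 ± 887 and 2568 ± 165 FPKM (SD, n = 3). Igfbp7, a secreted protein of the vessel wall, had 3462, 3695 and 4040 FPKM, and the sinusoidal lectin Clec4g (LSECtin) had 3422, 3628 and 4056 FPKM. These ranges overlapped almost entirely, and the order of Igfbp7 and Clec4g cannot be told from 3 libraries. Clec4g ranked sixth by the mean and 6 to 7 in the single samples.

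Several of the first 30 genes handle lipid and water. Apoe, an apolipoprotein that binds lipoprotein receptors, had 2673, 2638 and 4344 FPKM. Gpihbp1, which carries lipoprotein lipase across ECs and tethers it in the lumen, had 2469, 2275 and 2263 FPKM. Fabp4, a fatty acid chaperone of capillary ECs, had 2676, 2712 and 1393 FPKM. Of the 3, only Gpihbp1 was alike in all samples, with Apoe highest and Fabp4 lowest in replicate 3. The water channel Aqp1 had 2402, 2439 and 1425 FPKM and Cyp4b1, a cytochrome P450, 1469, 1375 and 1993 FPKM. Eng, the TGF-beta co-receptor endoglin, was the first pan-endothelial gene, at 1474, 1462 and 1559 FPKM, and Ehd3, a membrane-trafficking ATPase, closed the 30 at 1549, 1248 and 1230 FPKM. Eng varied little (CV 3.52%, the SD as a percent of the mean).

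Immediate-early genes, which are transcribed within minutes of a stimulus, stood among the first 30 as well. The MAP kinase phosphatase Dusp1 had 2896, 2910 and 2936 FPKM, the least spread of the 30 (CV 0.692%), and the AP-1 subunit Fos had 2170, 2340 and 2916 FPKM. Id3, an inhibitor of basic helix-loop-helix factors, had 1787, 1764 and 2169 FPKM. Dusp1 lay above Fos in each sample, although Dusp1 in replicate 1 was below Fos in replicate 3.

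The remaining genes of the 30 serve functions that all cells share. They were the membrane protein Itm2b, the actin-binding peptide Tmsb4x, the proline isomerase Ppia, the chaperone Hspa8, the elongation factor Eef1a1, the class I chain H2-K1, the ubiquitin gene Ubb, the ribosomal protein copy Rps27rt, the protease inhibitor Cst3 and the actins Actg1 and Actb. Actb had 2001, 1877 and 259 FPKM, so its rank was 18, 18 and 290, and without replicate 3 its mean rose from 1379 to 1939 FPKM. Of the 30 genes, 15 were highest and 13 lowest in replicate 3, shares near the 42.4 and 45.1% of all genes, and 23 were among the first 30 in each sample. Reads were not unique for all of them. Of the 75-base stretches in the longest annotated protein-coding transcript, 67.2% of Ftl1 and 59.0% of Ppia also occurred in transcripts of other genes, against 6.46% of H2-D1 and none of Sepp1, B2m, Clec4g, Dusp1 and Fos, so Ftl1 and Ppia are uncertain. Rps27rt had 0 counts in all 3 libraries beside 1525 ± 618 FPKM, and its level is uncertain too.

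**Figure D1:**
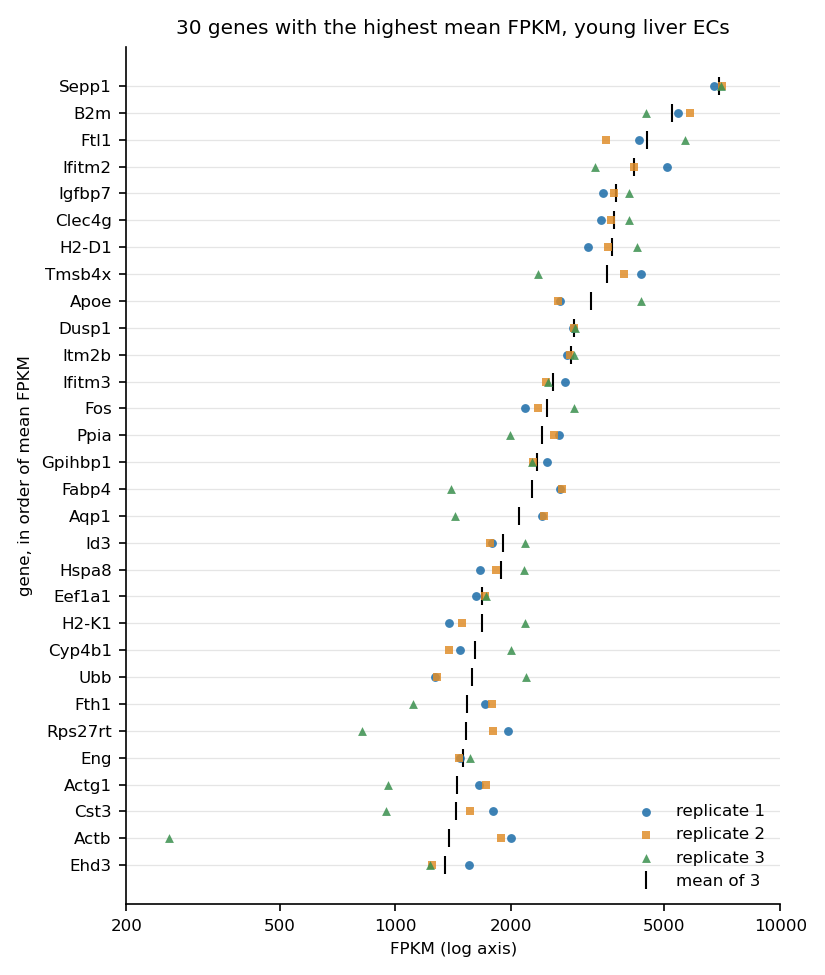
FPKM on a log axis of the 30 genes with the highest mean, in the 3 young samples (coloured points) with the mean of the 3 (vertical tick). Sepp1 leads in each sample, and the widest gap is that of Actb, with 259 FPKM in replicate 3 and 2001 and 1877 FPKM in replicates 1 and 2.

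Upstream sequences of 3 of these genes are shown because they lead the sinusoidal list (Clec4g) and the immediate-early list (Dusp1 and Fos), and each has a single annotated start. Each is the 250 bases before the start in RefSeq, on the gene's strand, in build GRCm38.p6, which is not the build of the counts. They lie at chr8:3720652-3720901 for Clec4g and chr17:26508473-26508722 for Dusp1 on the minus strand, and at chr12:85473640-85473889 for Fos on the plus strand. Capitals mark matches on either strand to the letters TATAAA of the core promoter box, to CCAAT of the box bound by NF-Y, to GGGCGG of the GC box, to TGACGTCA of the cAMP response element, to CCGGAAGT of an ETS factor site and to AGATAA of a GATA factor site, searched without mismatch.
Clec4g: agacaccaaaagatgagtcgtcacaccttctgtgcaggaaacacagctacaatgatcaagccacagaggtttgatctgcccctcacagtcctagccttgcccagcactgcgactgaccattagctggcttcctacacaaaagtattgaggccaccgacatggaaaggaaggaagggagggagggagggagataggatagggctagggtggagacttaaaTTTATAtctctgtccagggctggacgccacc
Dusp1: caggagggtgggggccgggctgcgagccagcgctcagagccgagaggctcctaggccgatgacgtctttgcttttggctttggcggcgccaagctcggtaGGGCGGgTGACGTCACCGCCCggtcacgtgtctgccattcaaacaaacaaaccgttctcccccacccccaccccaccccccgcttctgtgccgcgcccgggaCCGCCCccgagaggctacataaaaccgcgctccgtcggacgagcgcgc
Fos: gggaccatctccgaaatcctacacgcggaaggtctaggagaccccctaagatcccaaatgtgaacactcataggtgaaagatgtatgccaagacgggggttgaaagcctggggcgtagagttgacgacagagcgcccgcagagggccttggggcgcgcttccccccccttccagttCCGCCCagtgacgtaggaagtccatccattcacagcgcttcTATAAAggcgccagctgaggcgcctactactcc
The TATA letters stood near the end of the Clec4g and Fos windows. Dusp1 held the full cAMP response element between GC boxes. Of the 32851 windows of this length in the table, 12.4% held the TATA letters, 33.8% the CCAAT letters, 32.7% the GC box, 1.55% the cAMP response element, 2.88% the ETS letters and 9.99% the GATA letters. A match is a description of these letters and no evidence of binding.

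The label of the samples was set against marker lists. All 25 pan-endothelial markers had a mean of at least 10 FPKM, and 21 had at least 100. The list took 2.67, 2.70 and 2.91% of the counts. Its highest members after Eng were Ramp2, a subunit of the adrenomedullin receptor, with 800, 831 and 825 FPKM, and Egfl7, a secreted angiogenic factor, with 675, 680 and 1067 FPKM. Pecam1, which encodes the sorted protein CD31, had 425, 427 and 503 FPKM. Ptprc, which encodes the excluded protein CD45, had 0.292, 0.216 and 0.338 FPKM. Both proteins of the gate thus had RNA of the matching kind in every library.

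The 20 sinusoidal markers all reached 1 FPKM, 17 reached 100, and together they took 2.75, 2.91 and 2.88% of the counts. After Clec4g came Fcgr2b, the inhibitory Fc gamma receptor that removes antibody complexes, with 1043, 1166 and 1205 FPKM. The receptor Gpr182 followed with 1032, 1098 and 1216 FPKM. Oit3 had 841, 848 and 1067 FPKM, the DNase Dnase1l3 923, 882 and 697 FPKM and the hyaluronan receptor Lyve1 156, 215 and 274 FPKM. The sinusoidal list varied less between samples than most, with a median CV of 8.20% over its 20 genes.

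Markers of portal, arterial and large-vessel ECs took 1.096, 1.081 and 0.794% of the counts. All 22 reached 1 FPKM, and 7 reached 100. Ly6a, which encodes the surface protein Sca-1, had 1331, 1052 and 882 FPKM, the matrix protein Ltbp4 552, 462 and 396 FPKM, and the connexin Gja4 387, 663 and 316 FPKM. Cd200 had 63.5, 58.0 and 58.3 FPKM, while Bst1, which encodes CD157, had 1.48, 1.31 and 0.702 FPKM on 88, 65 and 50 counts. Replicate 3 was the lowest in 12 of 20 members compared, against 45.1% of all genes, which for so few genes is not read as a result. The 8 central venous markers took 0.516, 0.538 and 0.445%, led by Fabp4, the Wnt ligand Wnt2 (411, 363 and 388 FPKM) and Rspo3 (350, 323 and 275 FPKM). Fabp4, described above as a gene of capillary ECs, had 2676, 2712 and 1393 of the list's summed 4109, 4176 and 2789 FPKM. The sum thus largely follows this gene.

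Markers of other cells were low. The 12 pan-leukocyte genes took 0.0117, 0.0110 and 0.0112% of the counts, and 5 of them reached 1 FPKM. Of these, the actin bundler Lcp1 was highest, with 21.4, 23.5 and 22.4 FPKM. The 19 Kupffer cell and myeloid genes took 0.0137, 0.0135 and 0.0150%, with the complement gene C1qb at 32.02, 65.7 and 37.6 FPKM, and none of the 15 T, NK and B cell genes found reached 1 FPKM. Hepatocyte genes were detected in nearly full number, 29 of 30 with at least 1 FPKM but none with 100, and took 0.0722, 0.0538 and 0.0614% of the counts. Albumin, Alb, had 31.0, 21.1 and 40.2 FPKM.

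Stellate and mural cell genes took 0.112, 0.0972 and 0.0508% of the counts, less in replicate 3 than in the others. The collagen-binding proteoglycan Dcn had 79.1, 47.2 and 9.82 FPKM and Col3a1 15.3, 13.0 and 3.74 FPKM. Ecm1, with 281, 264 and 176 FPKM, made up most of the list's summed 466, 398 and 228 FPKM, so the total largely follows this gene. All 5 members compared were lowest in replicate 3, where 45.1% of all genes were. Cholangiocyte genes took 0.0104% ± 0.000972, mesothelial genes 0.0272% ± 0.00673, of which Gpm6a made up nearly all FPKM, erythroid genes 0.000756% ± 0.000294 and platelet genes 0.00325% ± 0.000306 (SD, n = 3). The globins Hba-a1 and Hbb-b1 had 129 ± 83.5 and 64.1 ± 33.8 FPKM on 0 counts, so the share of erythroid counts is uncertain.

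**Figure D2:**
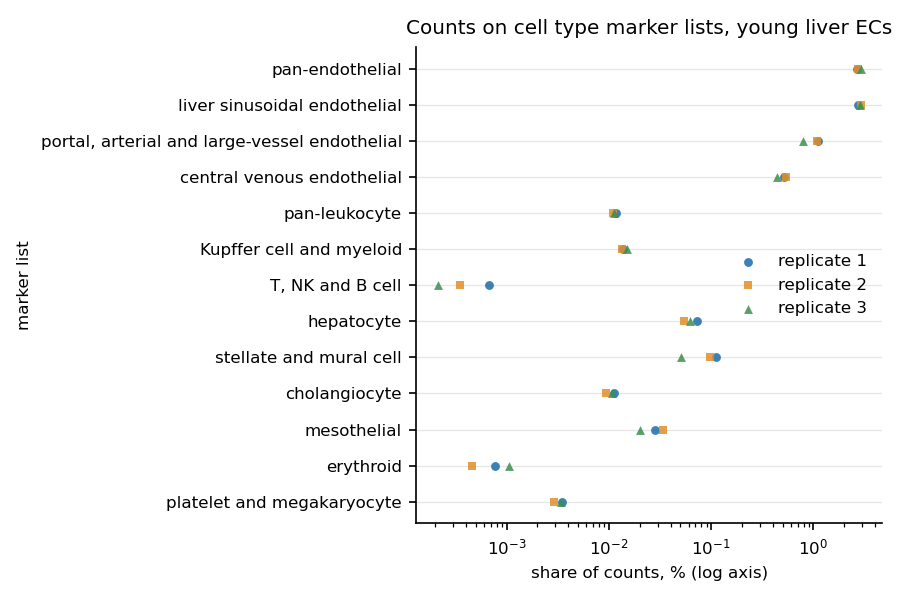
Share of counts, in percent on a log axis, on 13 cell type marker lists in the 3 young samples. The endothelial lists lie at 0.445% or more in every sample and the lists of other cells at 0.112% or less, with the stellate and mural list lowest in replicate 3.

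Immediate-early genes formed the class with the largest share among those compared, at 2.56, 2.71 and 3.03% of the counts. By share of the summed FPKM they held 2.63%, below the 5.47% of cytosolic ribosomal protein genes and above the 1.82% of the pan-endothelial list. Of 29 members, 26 reached 1 FPKM and 15 reached 100. Besides Dusp1 and Fos, Jun had 919, 986 and 1516 FPKM, the zinc finger factor Egr1 1021, 1145 and 1168 FPKM, and Junb 833, 977 and 872 FPKM. Ctgf, a matricellular target of YAP, had 391, 359 and 1050 FPKM, and the stress factor Atf3 had 248, 244 and 546 FPKM. Both were more than doubled in replicate 3, whereas Dusp1, Egr1 and Junb each kept within 20% between the 3 samples. Heat shock proteins took 1.25, 1.21 and 1.55%, with Hspa8 first, then the endoplasmic reticulum chaperone Hspa5 (651, 584 and 1149 FPKM) and the cytosolic chaperone Hsp90ab1 (658, 580 and 969 FPKM). How much of either class was already present before tissue dissociation and sorting was not tested.

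Cytosolic ribosomal protein genes took 1.64, 1.58 and 1.22% of the counts, and 69 of 81 had a mean of at least 100 FPKM. In 69 of 76 members compared, replicate 3 was the lowest, against 45.1% of all genes. The class made up 5.47% of the summed FPKM but 1.48% of the counts. Actin, tubulin and myosin light chain genes took 1.37, 1.30 and 0.665%. Replicate 3 was lowest in 18 of 19 members compared, against 45.1% of all genes. The list also held actin-binding genes, which its name does not cover. Among them were Tmsb4x at 4344, 3933 and 2349 FPKM and Pfn1, an actin-monomer binder, at 872, 847 and 427 FPKM. The whole list summed to 12988, 12229 and 6911 FPKM. Mitochondrial ribosomal protein genes took 0.240, 0.227 and 0.191% and proteasome subunits 0.473, 0.461 and 0.413%. These classes share a direction, each lowest in replicate 3, and the part of that library in their means was not tested.

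Lysosomal genes, which serve the degradation of what scavenger receptors take up, were high. Cathepsins took 0.620, 0.673 and 0.697% of the counts, with the aspartic protease Ctsd at 908, 945 and 993 FPKM, the cysteine protease Ctsl at 674, 762 and 1003 FPKM and Ctsb at 439, 511 and 492 FPKM. All 34 lysosomal hydrolases and membrane proteins reached 1 FPKM, took 1.09, 1.16 and 1.00%, and were led by the sphingolipid activator Psap (795, 852 and 610 FPKM) and Lamp1 (641, 679 and 762 FPKM). In 13 cathepsins, 5 had at least 100 FPKM.

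MHC class I genes took 0.889, 0.960 and 0.987% of the counts and MHC class II genes 0.0182, 0.0137 and 0.0239%. The class II invariant chain Cd74 had 79.1, 56.5 and 92.3 FPKM and the class II chain H2-Ab1 46.2, 33.3 and 74.7 FPKM, against 1377, 1493 and 2174 FPKM of the class I chain H2-K1. Up to 26.1% of the 75-base stretches of a class I transcript, that of H2-T22, occurred in other genes, so single class I levels are uncertain. Translation factors took 1.02% ± 0.0247, glycolysis genes 0.356% ± 0.00968 and histone genes 0.199% ± 0.00755 (SD, n = 3). Cell cycle genes took 0.0603, 0.0739 and 0.0617%, and none reached 100 FPKM. The replication clamp Pcna had 66.3, 72.0 and 69.8 FPKM, while the mitotic kinase Cdk1 had 3.57, 7.51 and 5.24 FPKM. Metallothionein Mt1, a binder of zinc and copper, had 481, 709 and 643 FPKM. No symbol carried the prefix of mitochondrial genes, and 27 symbols had been turned into calendar dates, so neither the mitochondrial share nor those genes are described.

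**Figure D3:**
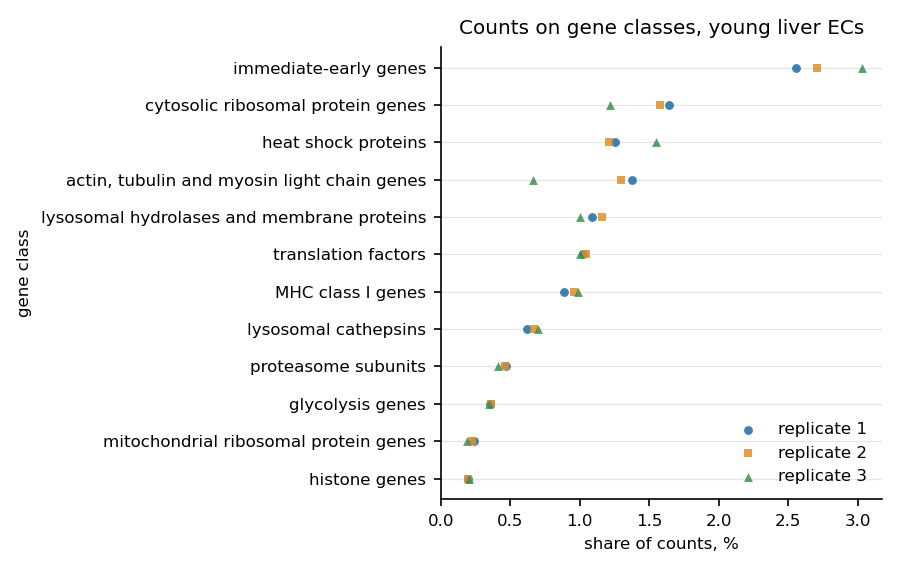
Share of counts, in percent, on gene classes with a mean of at least 0.1% in the 3 young samples. Immediate-early genes lie highest, at 2.56 to 3.03%, and the actin, tubulin and myosin light chain genes show the widest gap, 0.665% in replicate 3 against 1.30 and 1.37%.

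Within 34 families, members were ordered by mean FPKM, and 142 of 314 neighbouring pairs (45.2%) did not overlap in their 3 values. In 188 pairs the order was the same in each sample. The leading gene was the same in all 3 samples in 30 families, was separated from the second in 29, and held at least 50% of the family's FPKM in 23.

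The list of scavenger and endocytic receptors also held Gpihbp1, the carrier of lipoprotein lipase. Gpihbp1 led the list with 50.2% of its FPKM, 6.38 times above Stab2, so this lead is not that of a scavenger receptor. The classical scavenger receptors formed a plateau below it. Stab2, which clears hyaluronan, had 348, 384 and 367 FPKM, its relative Stab1 337, 362 and 334 FPKM, the mannose receptor Mrc1 335, 334 and 346 FPKM and the fatty acid and thrombospondin receptor Cd36 289, 339 and 308 FPKM. Each overlapped the next, while Stab2 was above Stab1 in each sample and above every value of Mrc1 and Cd36. The macrophage scavenger receptor Msr1 followed with 253, 239 and 222 FPKM, below every value of Cd36. C-type lectins were dominated by Clec4g, which held 82.9% of the family's FPKM and stood 13.4 times above Clec14a, an angiogenic EC lectin with 254, 263 and 309 FPKM. Fcgr2b led the Fc receptors. It stood above the neonatal Fc receptor Fcgrt, which recycles albumin and IgG (881, 909 and 787 FPKM), and above Fcer1g, the shared gamma chain (185, 141 and 138 FPKM). All 3 were separated from each other, and the activating receptor Fcgr3 had a mean near 1 FPKM (1.41, 0.873 and 1.47 FPKM).

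The VEGF receptors were separated in the order Kdr, Nrp1, Flt4 and Flt1. Kdr, the main signalling receptor for VEGF-A, had 603, 636 and 680 FPKM, the co-receptor Nrp1 393, 350 and 339 FPKM, and the lymphatic and sinusoidal receptor Flt4 245, 309 and 269 FPKM. Flt1, a decoy for VEGF, had 76.8, 71.5 and 95.4 FPKM and overlapped the co-receptor Nrp2. The ligands were far lower and all separated, Vegfc first with 24.1, 22.3 and 27.0 FPKM, then Vegfb, Vegfa and Pgf. Of the Tie system, the receptors Tie1 (370, 376 and 358 FPKM) and Tek (328, 326 and 340 FPKM) differed beyond their spread, but the receptor phosphatase Ptprb stood between them by its mean and rose to the top in replicate 3 (270, 275 and 475 FPKM). The antagonist ligand Angpt2 had 13.9, 17.8 and 28.4 FPKM, and the agonist Angpt1 0.148, 0.201 and 0.204 FPKM.

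Notch genes had clear leaders. Notch1 had 32.2, 31.6 and 46.1 FPKM and the endothelial receptor Notch4 20.8, 20.6 and 30.05 FPKM, with Notch2 and Notch3 near 1 FPKM. The ligand Dll4 had 98.2, 88.3 and 101 FPKM, 4.73 times the second ligand, and Dll1 and Jag1 overlapped. The Notch target Hes1, at 417, 411 and 375 FPKM, held 94.3% of its family, while Hey1 and Hey2 had means of 6.31 and 0.218 FPKM.

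Transcription factor families showed leaders that are known in liver ECs. Gata4, a regulator of sinusoidal identity, had 164, 165 and 157 FPKM and 85.9% of its family, 6.66 times Gata2. The SOXF factors were separated in the order Sox18 (167, 192 and 160 FPKM), Sox7 (51.3, 60.4 and 56.7 FPKM) and Sox17 (26.5, 23.5 and 30.2 FPKM). Klf2, induced by shear stress, had 762, 1019 and 458 FPKM and stood 7.51 times above Klf3, although its 3 values spanned more than those of any other leading factor named here. Among ETS factors, Ets1 (214, 217 and 194 FPKM) was separated from Ets2 (138, 142 and 91.1 FPKM), and the endothelial factor Erg had 13.5, 11.2 and 18.6 FPKM. The MAF factors had no stable leader, since Mafk (37.6, 39.1 and 64.5 FPKM) and the sinusoidal factor Maf (45.0, 47.5 and 24.1 FPKM) exchanged places in replicate 3.

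Ligands that act on hepatocytes were few and high. Wnt2 was separated from Rspo3, and Rspo3 from Wnt9b (51.7, 62.1 and 54.9 FPKM), all of which stood above the other 20 Wnt and R-spondin genes listed, none of which reached 1 FPKM. Bmp2 had 392, 403 and 371 FPKM and stood 5.25 times above Bmp6 (77.8, 52.5 and 91.7 FPKM), both of which are inducers of the iron hormone hepcidin. Bmp6 was above Bmp4 (47.3, 35.5 and 65.9 FPKM) in each sample, but their ranges overlapped. Of the receptors, Eng held 82.5% of the family and stood 8.68 times above Tgfbr2 (170, 179 and 168 FPKM). The co-receptor Tgfbr3 and the type I receptors Acvrl1, which binds BMP9 and BMP10, and Acvr1 followed, each separated from the next, with Acvrl1 at 37.6, 37.8 and 29.0 FPKM.

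The leading claudin, JAM group gene and cadherin were each separated from the second. Over whole families, 6 of 7 JAM group neighbours, 3 of 11 claudin neighbours and 4 of 9 cadherin neighbours were separated. Cldn5, the tight junction claudin of ECs, had 246, 198 and 123 FPKM and 89.1% of its family. Esam (680, 733 and 1006 FPKM), Jam2 (401, 441 and 528 FPKM) and F11r (240, 226 and 190 FPKM) followed each other without overlap. The GPI-anchored Cdh13 (278, 284 and 297 FPKM) stood 2.63 times above VE-cadherin, Cdh5 (117, 119 and 91.1 FPKM). Of the leukocyte adhesion receptors, Pecam1, Icam2 (391, 367 and 325 FPKM) and Vcam1 (251, 284 and 264 FPKM) were separated in this order. P-selectin, Selp, had 90.7, 99.6 and 109 FPKM and E-selectin, Sele, 14.0, 16.4 and 29.6 FPKM. The integrin chain Itgb1 had 272, 285 and 261 FPKM, 18.4 times the second beta chain, while the alpha chains Itga1, Itga9 and Itga5 overlapped one another.

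The list of caveola and pore diaphragm genes also held Ehd3, the membrane-trafficking ATPase. Ehd3 and Plvap (1479, 1346 and 865 FPKM), the latter the diaphragm protein of fenestrated ECs, overlapped. Both stood above the cavin Sdpr at 577, 516 and 532 FPKM. Cav2 (165, 163 and 99.1 FPKM), Cav1 (156, 181 and 78.0 FPKM) and the cavin Ptrf (137, 138 and 67.1 FPKM) were lowest in replicate 3, as were 8 of the 11 members compared and 45.1% of all genes. S1pr1, the receptor for sphingosine-1-phosphate that holds EC barriers, had 197, 276 and 251 FPKM and 94.9% of its family. In the vasomotor family Ece1, which activates endothelin, had 313, 322 and 283 FPKM, 3.42 times the next gene, and Ednrb, Nos3 (65.3, 66.5 and 98.0 FPKM) and Edn1 overlapped. Nos3 is the endothelial nitric oxide synthase.

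Regulators of clotting formed the family with the flattest order. The plasmin cofactor Anxa2 (440, 418 and 304 FPKM), protein S, Pros1 (306, 350 and 390 FPKM), von Willebrand factor, Vwf (282, 310 and 196 FPKM), thrombomodulin, Thbd (188, 265 and 212 FPKM), the inhibitor Tfpi (194, 242 and 168 FPKM) and factor VIII, F8 (196, 209 and 155 FPKM), overlapped with their neighbours, and Anxa2 held 22.6% of the family. All 6 were above Plaur, the urokinase receptor, without overlap.

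Matrix and guidance genes had narrow sets of expressed members. Col4a1 (216, 201 and 200 FPKM) and Col4a2 (115, 103 and 104 FPKM), the chains of the common basement membrane collagen, were separated, and the other 4 type IV chains stayed below 1 FPKM. Lamb2 (75.8, 78.5 and 68.2 FPKM) led the laminins. Ephb4, the venous Eph receptor, had 267, 264 and 195 FPKM, 26.3 times the second Eph receptor, and the ephrin Efna1 had 123, 105 and 174 FPKM. The semaphorin Sema3f had 193, 193 and 190 FPKM and 56.1% of its family, and the plexin Plxnc1 99.2, 116 and 109 FPKM. Toll-like receptors were limited to Tlr2 (24.9, 25.1 and 18.8 FPKM), Tlr3 (14.1, 14.1 and 14.4 FPKM) and Tlr4 (11.7, 14.3 and 10.7 FPKM) among 12 listed, the others staying below 1 FPKM.

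**Figure D4:**
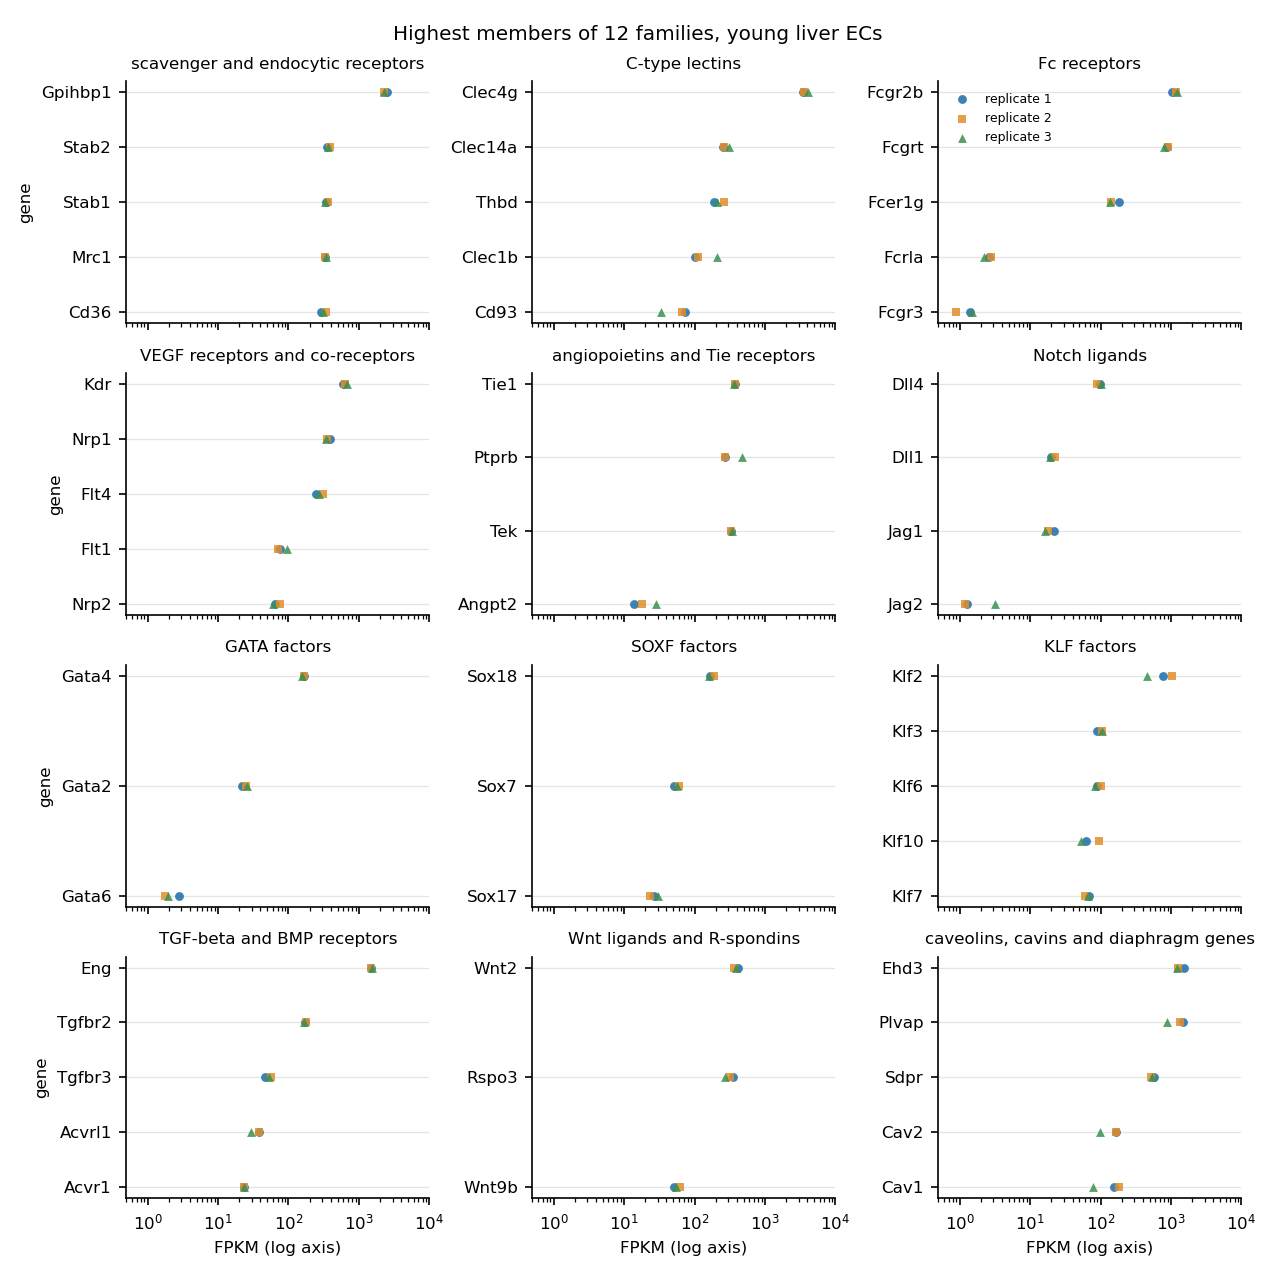
FPKM on a log axis of up to 5 members with a mean of at least 1 FPKM in each of 12 families, in the 3 young samples. Single genes such as Clec4g (3422 to 4056 FPKM), Gata4 (157 to 165 FPKM) and Eng (1462 to 1559 FPKM) stand clear of the rest, while Stab2, Stab1, Mrc1 and Cd36 lie close together, between 289 and 384 FPKM.

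The spread between the 3 replicates was measured over the 11184 genes with a mean of at least 1 FPKM. The median CV was 15.5%, with quartiles of 8.67 and 25.7%, and without replicate 3 it was 6.63%. It fell from 19.7% in genes between 1 and 10 FPKM to 12.2% between 10 and 100 FPKM, and was 13.5% between 100 and 1000 FPKM and 14.6% in the 44 genes above. The common biological coefficient of variation of the counts, estimated with edgeR on 13840 genes, was 0.324, and without replicate 3 it was 0.199. Per class, the median CV over members with at least 1 FPKM was 8.20% in sinusoidal and 10.6% in pan-endothelial markers. It was 18.1% in cytosolic ribosomal proteins and 19.8% in actin, tubulin and myosin genes. In 29 hepatocyte markers it was 38.7%, and in 15 stellate and mural markers 45.7%.

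Among the same 5984 genes, 339 differed more than 2-fold between their highest and lowest sample, and 3 more than 10-fold. The most variable gene was the pancreatic-type elastase Cela1, with 304, 3.05 and 1.43 FPKM on 7631, 63 and 41 counts, high in replicate 1 only. Next came the urinary protein Mup7 (2.00, 10.7 and 24.6 FPKM), Gm3893 (2.77, 2.98 and 30.1 FPKM), the methyltransferase Bhmt (23.01, 13.3 and 2.36 FPKM), Sprr2b (18.6, 13.6 and 2.11 FPKM), Dcn, Actb, the neuropeptide Nts (14.4, 24.6 and 3.28 FPKM), the kinase Map3k6 (5.21, 8.61 and 34.6 FPKM) and the carbonic anhydrase Car3 (17.9, 12.7 and 3.00 FPKM). Replicate 3 was the highest or lowest sample in each of these 10 genes, although the wide gap of Cela1 lay at replicate 1. Over all 5984 genes it was highest in 42.4% and lowest in 45.1%, so this count is not read as a trait of the variable genes. Bhmt, Mup7 and Car3 are genes of hepatocytes, whose list took 0.0614% of the counts in replicate 3 and 0.0722 and 0.0538% in the others. The part of hepatocyte RNA in their spread was not tested.

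The most stable genes were Ssu72, a phosphatase of RNA polymerase II (61.1, 61.2 and 61.0 FPKM), the signalosome subunit Cops3 (28.4, 28.3 and 28.3 FPKM), the endothelial matrix gene Mmrn2 (267, 268 and 268 FPKM), Slc25a11, Use1, Csrp2bp, Pole4, Rexo2, Prps1 and the amino acid transporter chain Slc3a2 (166, 167 and 168 FPKM). Their highest value was at most 1.01 times the lowest. Mmrn2 was the only member of the pan-endothelial list among the 10.

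Replicate 3 was above double the mean of the other 2 in 109 of the 5984 genes and below 50% of it in 134. The same counts were 14 and 36 for replicate 1 and 6 and 23 for replicate 2. Genes low in replicate 3 were short. The median exonic length was 1661 bases in the 134 genes, 3650 in the 109 genes and 3340 in the other 5741, while the median GC content was 52.0, 51.3 and 50.8%. Length, the share of ribosomal RNA symbols and the level of short abundant transcripts such as those of ribosomal proteins thus moved together in this library, and their part in its distance from the others was not tested.

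**Figure D5:**
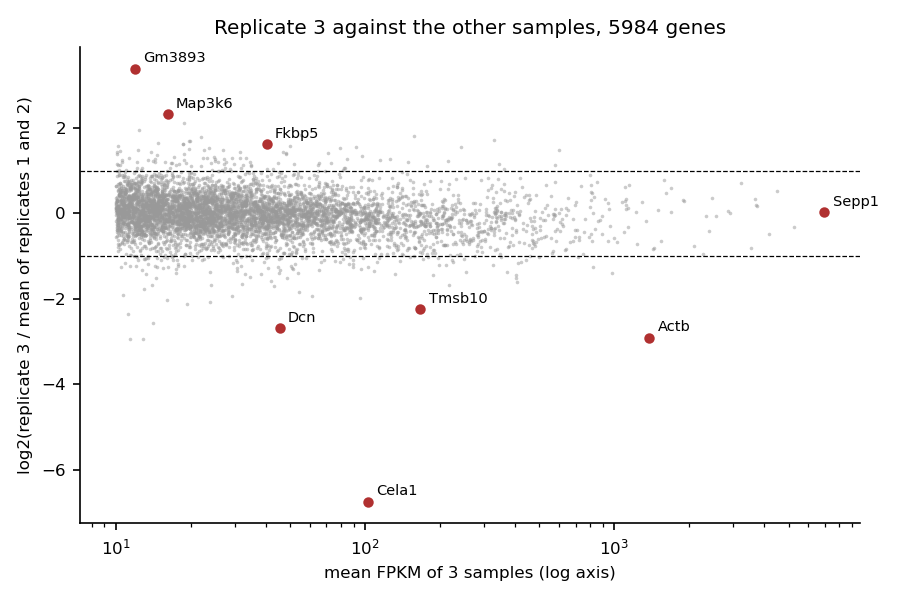
Log2 ratio of replicate 3 to the mean of replicates 1 and 2 against the mean FPKM of the 3 young samples (log axis), for 5984 genes, with dashed lines at a 2-fold difference. Above the upper line lie 109 genes, among them Gm3893, Map3k6 and Fkbp5, below the lower line 134, among them Actb, Tmsb10 and Dcn, and Sepp1 lies near 0.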

How the data were processed

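RNA was measured in sorted CD31+CD45- liver ECs of 10-week-old C57BL/6J mice (3 samples). Per the labels and the methods, RNA came from 50000 cells (RNeasy Plus Micro), libraries were made with TruSeq v2. The submitters' processing notes name CASAVA 1.8.2, TopHat2 2.1.0, Cuffnorm 2.2.1 and mm9. One table that the authors deposited holds raw read counts (24421 gene symbols) that were not normalized. The counting program, annotation and strand setting are not given in the sources used here, so overlapping and antisense genes are uncertain. The other table the authors deposited holds FPKM values (24346 symbols) that Cuffnorm scaled between samples.

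Lars2, Rn45s and 1287 small noncoding RNA symbols were left out of ranks. Ranks used the mean of the 3 FPKM values, and classes used gene lists or symbols. Of 896 list entries, 3 were not in the tables. Named genes were the first 30 by mean FPKM, the leading members of each family, marker list and class, and the 10 most variable and 10 most stable genes. Neighbours in a family were called separated when the lowest value of one exceeded the highest of the other, and pairs with both means under 0.1 FPKM were not compared. The common dispersion was estimated with edgeR 4.0.16 (R 4.3.3, TMM factors of 0.994 to 1.01, intercept only, genes reaching a CPM of 0.5 in 1 or more samples) and was tested on simulated data. DESeq2 1.42.0 gave alternative size factors. Gene positions, exonic length and GC content came from GENCODE vM1 on mm9, which held 21975 of 24319 symbols, and upstream windows from RefSeq on GRCm38.p6. The members and gene lists were chosen with earlier results of these data known, and the lists of the closing observations after the values were seen. Total counts were 23001556 to 31651817 per sample. No group was compared, so no p-value is given. Alternatives were other scalings, filters, rank measures and the removal of each replicate.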

Additional observations from a re-analysis of the deposited data

Results flagged for a closer look

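Lars2 and Rn45s, set aside from every rank and share, held 3.99% of all counts on average (5.48, 5.21 and 1.29% in replicates 1, 2 and 3). These symbols lie outside the description above, and their counts are well over the 3 counts taken as the limit of detection. Small noncoding RNA symbols held 0.0495% of the counts on average (0.0726, 0.0673 and 0.00873%), but large FPKM values: Mir130c was listed at 6141, 8940 and 0 FPKM on 0 counts in each library, and Mir703 at 2289, 2221 and 1525 FPKM on 85, 70 and 12 counts. The share of counts was lowest in replicate 3 for both groups of symbols. Single small noncoding RNA symbols did not all share this direction, as Snora28 had 68, 58 and 223 counts. No test for an outlying sample was made, since the groups hold 3 samples.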

How the results depend on the processing

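Of 128 recomputed values of 23 results, 100 moved by less than the margin set for each and none reversed. The 28 that moved further are given here, except some ranks of single genes among the first 10. The margin was 1.5 times for a count of genes, 1 SD between replicates for a share or rank, and the SD of the 3 values with a replicate left out for the CV and the coefficient of variation. Ranked by mean CPM, which is not per length, 18 of the first 30 genes stayed among the first 30, and B2m moved from rank 2 to 13, Ifitm2 from 4 to 47, H2-D1 from 7 to 41 and Tmsb4x from 8 to 55. By share of the summed FPKM instead of counts, the pan-endothelial list held 1.82%, the sinusoidal list 2.28%, the actin, tubulin and myosin list 2.13%, the hepatocyte list 0.113% and cytosolic ribosomal proteins 5.47%, and the cause was not tested. With Lars2 and Rn45s kept in the total, the sinusoidal share was 2.73%. The median CV without a filter beyond a mean above 0 was 23.5%. Leaving out each replicate in turn gave a median CV of 6.63 to 16.3% and a common coefficient of variation of 0.199 to 0.378, the lowest of each without replicate 3. The same left 28 to 29 of the first 30 genes, 11130 to 11185 genes with at least 1 FPKM, and 173 to 207 separated neighbours, a rise that follows from fewer samples. By CPM, 29 of 34 families kept their leading gene, the exceptions being led by Stab2, Ptprb, Maf, Jam2 and Vwf. A minimum of 30 counts in each sample, added after the data were seen, kept 29 of the first 30. No paired comparison of groups was possible because there is a single group.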

Other observations

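Circadian clock genes, a list made after Dbp and Tef were seen among the variable genes, differed between the 3 libraries in more than one direction. Of 19 genes, 16 had a mean of at least 1 FPKM. The output factor Dbp had 8.87, 24.6 and 47.3 FPKM in replicates 1, 2 and 3, the related Tef 11.1, 28.2 and 48.5 FPKM, the repressor Nr1d1 36.5, 56.1 and 101 FPKM, Per2 0.688, 2.85 and 9.66 FPKM and Ciart 1.27, 2.78 and 8.91 FPKM. The repressor Nfil3 (5.52, 4.24 and 3.00 FPKM) and the activators Arntl and Npas2 were ordered the other way, Arntl with 15.7, 8.88 and 5.24 FPKM and Npas2 with 1.17, 0.744 and 0.313 FPKM. The activator Rora had 3.57, 3.76 and 5.05 FPKM, Clock 5.505, 5.68 and 4.67 FPKM and the repressor Bhlhe40 58.1, 102 and 80.9 FPKM, so the direction did not follow the role of the gene. The hour of tissue collection is not given in the sources used here, and its part in these values was not tested. Of 10 glucocorticoid response genes listed, Fkbp5 (16.3, 31.4 and 73.0 FPKM), Zbtb16 (0.621, 1.18 and 9.23 FPKM), Nfkbia and Per1 had the same order as Dbp. Dusp1 had it by a small margin. Tsc22d3 (227, 330 and 283 FPKM), Sgk1 (892, 918 and 809 FPKM), Cdkn1a, Nr3c1 and Errfi1 did not.

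Of 22 chemokines, 15 had a mean of at least 1 FPKM, and Cxcl10, an interferon-induced attractant of T cells (185, 190 and 612 FPKM), and Cxcl16 (129, 115 and 171 FPKM) were the 2 with at least 100 FPKM. Of 14 chemokine receptors listed, a set without Gpr182, 5 had at least 1 FPKM. They were Ccrl2 and the atypical receptors Ackr2 (67.2, 112 and 95.3 FPKM), Ackr1, Ackr4 and Ackr3. The Ackr receptors bind chemokines without G protein signalling. Of 23 interferon-induced genes, 20 had a mean of at least 10 FPKM. Ifit3 (30.5, 29.7 and 89.8 FPKM) and Ifit1 (21.9, 20.6 and 52.0 FPKM) were highest in replicate 3, as were Cxcl10 and 42.4% of all 5984 genes compared. In the list, Ifitm2, Ifitm1 (13.4, 8.28 and 7.34 FPKM) and Ifi27l2a (65.3, 70.3 and 25.9 FPKM) were lowest in replicate 3. Ifitm3 and Irf8 lay between, and the others were highest. The list was made after the values were seen, so this is not read as a result. Lipoprotein lipase itself, Lpl, had 3.26, 4.31 and 3.67 FPKM beside 2336 FPKM of its endothelial carrier Gpihbp1. The equilibrative nucleoside transporter Slc29a1 had 794, 746 and 855 FPKM, and the mechanosensitive channel Piezo1 24.2, 25.1 and 23.6 FPKM.

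Of the symbols with at least 10 FPKM, 34 had 0 counts in all 3 libraries. Among them were Rps27rt, Gm1987 (955 FPKM), Hba-a1, Hbb-b1, H2-Q6, H2-Q8 and the proton pump subunit Atp6v0c (91.2 FPKM), so the 2 deposited tables do not measure these symbols alike.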
